A study of Mus musculus with 4 samples.

Results

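The immediate early genes Fos, Fosb, Jun, Junb, Jund, Egr1, Ier2, Dusp1, Atf3 and Klf6 were measured in single blood stem and progenitor cells of the mouse. They are 10 of the 32285 genes in the count matrices, and all 10 had UMIs (unique molecular identifiers, which count captured RNA molecules) in every library. The genes were taken by symbol, and the list was chosen by the ratio of Fosb to control in the Mll3-labelled library, where Fosb ranked at place 21 of 6125 genes. The values of that library against control are therefore a description of how the list was chosen, and nothing is supported with them.

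Immediate early genes are transcribed within minutes of a signal, without new protein synthesis, from promoters that hold their activators and RNA polymerase in readiness. Serum response factor with its ETS partners, the CREB family and MAP kinases are the best known inputs. Fos and Jun proteins pair through leucine zippers into the AP-1 transcription factor, while Dusp1 removes phosphate from MAP kinases and so limits the signal. In bone marrow, Egr1 is known as a factor that holds blood stem cells in quiescence, and the same genes are known to respond to tissue dissociation and cell sorting.

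The cells were LSK bone marrow cells (without lineage markers, with Sca1 and Kit) that carried CD45.2, a gate that in normal marrow holds stem cells and early progenitors, taken 10 weeks after transplantation. There was 1 library for each of 4 genotypes: control, Mll3 deleted, Mll4 deleted, and Mll3 and Mll4 both deleted. Mll3 and Mll4 are histone H3 lysine methyltransferases encoded by Kmt2c and Kmt2d and act mainly at enhancers. CD45.2 marks the leukocytes of 1 side of a transplant between mice that differ at this locus. The labels do not name the driver of the deletion, the control's alleles, the hosts, or how many mice were behind a library. With 1 library per genotype there was no test and no p-value, and every interval below is a 95% interval that covers counting error only. Fewer cells expressing a gene and less RNA per cell cannot be told apart in the library sums.

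After barcodes with under 1000 genes or over 10% mitochondrial UMIs were left out, 4748 to 7274 cells per library remained, with a median of 8920 to 21400 UMIs per cell. Each pair of libraries shared 7 to 14 of the kept barcodes. Kmt2c was at 68.9 CPM (UMIs scaled to a library total of 1000000) in the control, 35.3 under the Mll3 label, 61.3 under the Mll4 label and 42.3 under the Mll3/4 label. Kmt2d was at 24.6, 21.6, 22.6 and 25.4 CPM in the same order, so these counts at the 3-prime end of the message did not separate the libraries with an Mll4 label. Whether the counted end lies outside the deleted part is not given in the sources used here, and all libraries are called by their labels. Of the 4 libraries, 2 departed from the LSK label. In the Mll3/4-labelled library 99.5% of cells had at least 4 of 13 B-lineage genes, and the stem cell genes Hlf, Mecom and Procr were at 2.21, 1.004 and 0.138 CPM against 291, 87.5 and 32.3 in the control, although Kit and Ly6a (Sca1) were present. In the Mll4-labelled library 43.9% of cells carried markers of mature cells, chiefly of macrophages (996 cells) and mast cells (850 cells), against 1.54% of control cells. The other 2 libraries had 0.55% (control) and 4.36% (Mll3-labelled) B-lineage cells, and 2.20% of the Mll3-labelled cells carried mature markers.

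RefSeq promoter sequences (GRCm38.p6) were at hand for 8 of the 10 genes, all but Egr1 and Ier2. The 150 bases just before the RefSeq transcription start are shown for 6 of them, 5′ to 3′ on the gene's strand. Each of the 6 holds an element marked below, but no single element is in all 6. The Jund window holds none of them and is not shown. The Atf3 window is not shown, although it too holds TGACG, on the other strand 7 to 3 bases before the start. Capitals mark TGACGTCA (the cAMP response element, CRE), its 5-base part TGACG, TGACATCA (a known binding site of Jun in its own promoter), TATAAA (the TATA box) and GCGNGGGCG (the site that Egr proteins read), searched on both strands.
Fos, chr12:85473740-85473889, plus strand: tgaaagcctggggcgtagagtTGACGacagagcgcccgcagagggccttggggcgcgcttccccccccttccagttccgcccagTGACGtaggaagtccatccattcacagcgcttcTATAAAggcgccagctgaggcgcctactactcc
Fosb, chr7:19310046-19310195, minus strand: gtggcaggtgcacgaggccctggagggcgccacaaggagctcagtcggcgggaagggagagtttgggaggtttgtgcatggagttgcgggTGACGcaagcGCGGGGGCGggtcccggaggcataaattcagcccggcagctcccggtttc
Dusp1, chr17:26508473-26508622, minus strand: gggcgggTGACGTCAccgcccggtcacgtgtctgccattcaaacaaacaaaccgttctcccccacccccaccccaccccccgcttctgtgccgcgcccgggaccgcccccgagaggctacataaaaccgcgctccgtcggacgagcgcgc
Junb, chr8:84978749-84978898, minus strand: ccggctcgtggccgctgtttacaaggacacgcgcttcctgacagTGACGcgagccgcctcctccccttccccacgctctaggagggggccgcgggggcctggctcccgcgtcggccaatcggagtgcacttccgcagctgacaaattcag
Jun, chr4:95052223-95052372, minus strand: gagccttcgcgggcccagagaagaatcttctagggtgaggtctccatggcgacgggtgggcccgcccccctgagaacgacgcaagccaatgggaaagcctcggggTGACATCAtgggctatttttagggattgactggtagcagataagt
Klf6, chr13:5861339-5861488, plus strand: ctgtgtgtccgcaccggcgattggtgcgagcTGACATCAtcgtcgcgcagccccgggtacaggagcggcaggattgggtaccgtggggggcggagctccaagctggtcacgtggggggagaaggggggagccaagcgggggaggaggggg

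Over the 250 bases before the start, TGACG was found in 5 of the 8 promoters (Fos, Fosb, Junb, Dusp1 and Atf3) and in 17.8% of all 32851 promoters in the table. In Fos and Fosb its nearest copy began 66 and 60 bases before the start. The full CRE, which contains TGACG, was found in Dusp1 alone among the 8 and in 1.55% of all promoters. TGACATCA was found in Jun and Klf6 and in 2.93% of all promoters, and the Egr site in Fosb alone and in 4.70%. TATAAA was found in Fos alone and in 12.4% of all. The AP-1 consensus TGANTCA (6.75% of all promoters) and the CArG box that serum response factor reads (1.47%) were in none of the 8 windows. These are letter matches in a short window and say nothing of binding. For Jund, Atf3 and Dusp1 the RefSeq start used was away from the start of the gene span given below. The 150 bases nearest it were chr8:70697589-70697738 for Jund, before the span, and chr1:191183334-191183483 for Atf3, inside the span. The Dusp1 window also lay inside its span. Other starts of these genes were not searched.

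**Figure D1:**
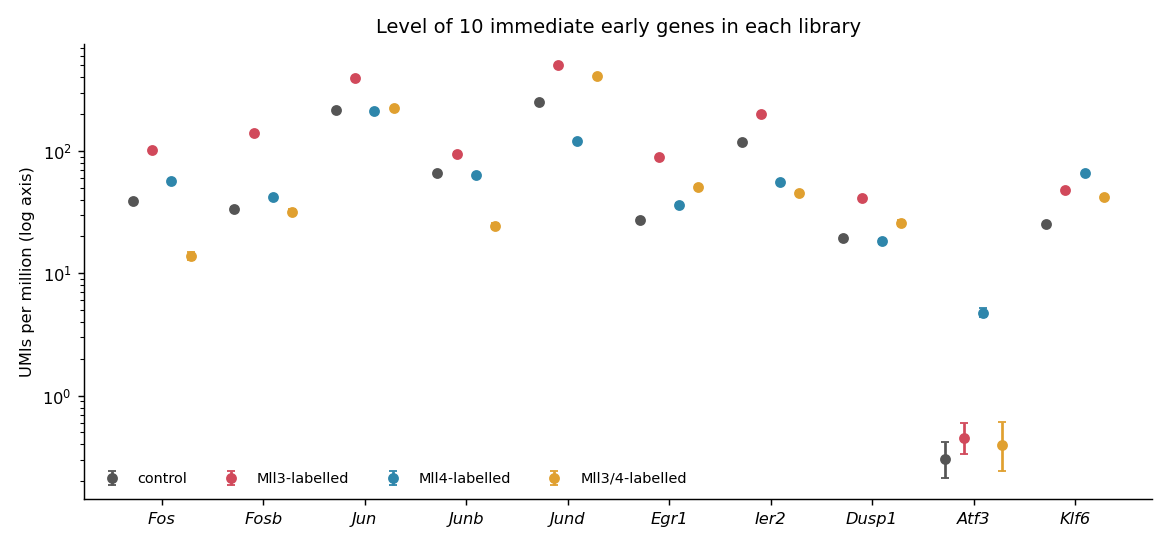
Level of each gene in CPM (log axis) in the 4 libraries, 1 point per library with its 95% Poisson interval. The Mll3-labelled library is highest for 8 of the 10 genes, and the Mll4-labelled library for Atf3 and Klf6.

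Fos and Fosb were both highest in the Mll3-labelled library and parted in the Mll3/4-labelled one. Fos (ENSMUSG00000021250, chr12:85473890-85477273 on GRCm38, 4 exons) was at 39.3 CPM in the control (38.2 to 40.4), 101 under the Mll3 label (99.1 to 103), 56.6 under the Mll4 label (55.3 to 58.0) and 14.0 under the Mll3/4 label (13.0 to 15.0). All 4 intervals were apart, with the Mll3-labelled library highest and the Mll3/4-labelled lowest. Fosb (ENSMUSG00000003545, chr7:19302696-19310051), a Fos relative whose protein likewise needs a Jun partner, was at 33.7 CPM in the control (32.6 to 34.7), 139 under the Mll3 label (137 to 141), 41.9 under the Mll4 label (40.8 to 43.1) and 31.8 under the Mll3/4 label (30.3 to 33.4). Here only the control and Mll3/4-labelled intervals overlapped.

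The Jun family supplies the other side of AP-1, and its members did not move as one. Jun (ENSMUSG00000052684, chr4:95049034-95052222, 1 exon) was at 216 CPM in the control, 391 under the Mll3 label, 212 under the Mll4 label and 226 under the Mll3/4 label, so that 3 libraries lay close together. Junb (ENSMUSG00000052837, chr8:84974484-84978718), which often opposes Jun, was at 65.5, 95.3, 63.6 and 24.3 CPM in the same order. Jund (ENSMUSG00000071076, chr8:70698949-70700616), known as the Jun gene that is active in resting cells, was at 253, 503, 121 and 407 CPM. Junb was thus lowest in the Mll3/4-labelled library and Jund in the Mll4-labelled library, while Jund in the Mll3/4-labelled library lay nearer to the Mll3-labelled value. Jun, Junb and Jund overlap Junos, Prdx2 and Gm11175 on the opposite strand, as Dusp1 overlaps Gm8225 and Ergic1 and Atf3 overlaps Gm24748, and whether counting used strand is not given in the sources used here.

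Egr1 (ENSMUSG00000038418), a zinc finger factor, was at 27.5 CPM in the control (26.6 to 28.5), 89.4 under the Mll3 label (87.6 to 91.2), 36.5 under the Mll4 label (35.4 to 37.6) and 50.4 under the Mll3/4 label (48.5 to 52.4). Klf6 (ENSMUSG00000000078, chr13:5861482-5870394), a zinc finger factor of the Krüppel-like family that macrophages are known to express, was at 25.1, 47.5, 65.7 and 42.1 CPM. Ier2 (ENSMUSG00000053560, chr8:84661331-84662852), a small nuclear protein, was at 119, 199, 55.6 and 45.1 CPM, so it was below the control in both libraries with an Mll4 label. Egr1 and Klf6 were the genes of the list that lay above the control in all 3 mutant libraries with intervals apart.

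Dusp1 (ENSMUSG00000024190, chr17:26505590-26562128), the MAP kinase phosphatase, was at 19.3 CPM in the control, 41.0 under the Mll3 label, 18.3 under the Mll4 label and 25.9 under the Mll3/4 label. Its control and Mll4-labelled intervals overlapped (18.6 to 20.1 and 17.5 to 19.1). The annotated Dusp1 span also holds AC122252.4 and AC122252.1 on the same strand, and how reads were divided among them is not given in the sources used here. Atf3 (ENSMUSG00000026628, chr1:191170296-191218039), a stress-induced partner of Jun, was scarce, with 36, 48, 575 and 20 UMIs in all, which is 0.302, 0.453, 4.76 and 0.394 CPM. Only its Mll4-labelled value stood apart. Atf3 missed the mean of 20 CPM over the 4 libraries that the other 9 genes passed.

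**Figure D2:**
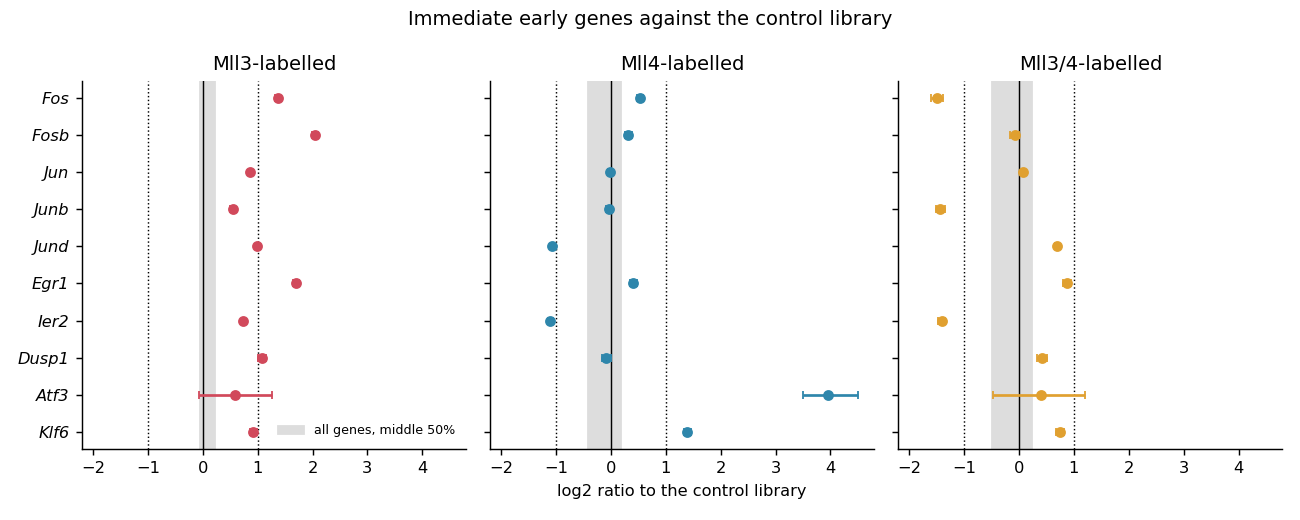
Log2 ratio of each gene to the control library, 1 panel per mutant library, with 95% counting intervals, dotted lines at 2-fold and a grey band for the middle 50% of 6125 genes. All 10 points lie right of 0 in the Mll3-labelled panel, and the points spread to both sides in the other 2.

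In the Mll3-labelled library all 10 genes lay above the control, with Fosb 4.13-fold, Egr1 3.25-fold, Fos 2.57-fold and Dusp1 2.12-fold higher. On the log2 scale these were 2.05 (1.995 to 2.10), 1.70 (1.64 to 1.76), 1.36 (1.31 to 1.41) and 1.08 (1.011 to 1.16). At least 2-fold higher were thus 4 of 10 and at least 2-fold lower 0, where 1.09% and 0.457% of the 6125 genes with a mean of 20 CPM or more were past those lines. Jund, at 1.99-fold, was just outside the line and Dusp1 just inside it. Klf6 (0.92), Jun (0.86), Ier2 (0.74) and Junb (0.54) followed, and the Atf3 interval included 0 (0.58, -0.07 to 1.25). The median of the 10 log2 ratios was 0.96, against 0.10 for all genes. These are the values that chose the list, so the count is not read against its background. Dusp1 stayed past 2-fold under 8 of 13 other ways of scaling, weighting or selecting cells, and weighting the antibody groups to the control's shares took it lowest, to 0.85. Atf3 turned to -0.58 when cells with an Hspa1a or Hspa1b UMI were left out, and the other 9 genes kept their sign under all 13.

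The 10 genes spread in both directions in the Mll4-labelled library. Atf3 was higher by 3.96 on the log2 scale (3.49 to 4.51) and Klf6 by 1.39 (1.33 to 1.45), while Jund was at -1.07 (-1.09 to -1.04) and Ier2 at -1.10 (-1.14 to -1.06). At least 2-fold higher were 2 of 10 genes and at least 2-fold lower 2, where 4.98% and 3.28% of all genes were. Atf3, counted among the higher genes, missed the 20 CPM mean and so was not among the 6125 genes behind these shares. With 1 UMI in both libraries as the minimum, 16.5% and 8.91% of genes were past those lines. Fos (0.53), Egr1 (0.41) and Fosb (0.32) were less than 2-fold higher, and Jun (-0.02), Junb (-0.04) and Dusp1 (-0.08) had intervals that reached 0. The median was 0.15, against -0.13 for all genes.

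Both of the higher genes were counted largely in cells with mature markers, which held 24.0% of the library's UMIs but 81.6% of its Atf3 and 57.9% of its Klf6 UMIs. This was not particular to the higher genes. Dusp1 (53.9%), Junb (44.9%), Jund (42.0%), Fosb (38.6%), Fos (37.9%), Jun (33.4%) and Ier2 (26.5%) were also above the 24.0% share, and only Egr1 (23.6%) was not. Cells with macrophage markers made up 20.8% of its cells and held 11.02% of its UMIs, but 78.8% of its Atf3 UMIs, 43.2% of its Dusp1 UMIs and 40.3% of its Klf6 UMIs. In these 996 cells Atf3 was at 34.1 CPM, Dusp1 at 71.7 and Klf6 at 240. Mature markers here are those of mast cells, macrophages, plasma cells, T or innate lymphoid cells and stroma. With every cell that carried them left out of all libraries, Klf6 came to 0.57 and Atf3 to 2.60 against control, and Dusp1 to -0.80. Jund then came to -1.44 and stayed past 2-fold, as did Ier2 in the 2688 remaining cells. With each cell weighted equally Jund was at -0.66, and with each cell thinned to 3000 UMIs drawn at random Ier2 was at -0.93, so neither was past 2-fold under those weights. Cells with neutrophil or erythroid genes were not left out. The 9 neutrophil genes summed to 14049 CPM in this library against 1660 in the control (S100a8 2292 against 235) and the 6 erythroid genes to 934 against 20.6, and their part in the ratios was not tested.

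In the Mll3/4-labelled library Fos, Junb and Ier2 were lower and no gene was 2-fold higher. Fos was at -1.49 (-1.61 to -1.38), Junb at -1.43 (-1.52 to -1.34) and Ier2 at -1.40 (-1.47 to -1.34). At least 2-fold lower were 3 of 10 genes and at least 2-fold higher 0, where 10.5% and 6.07% of all genes were. Egr1 (0.87), Klf6 (0.75), Jund (0.69) and Dusp1 (0.42) were higher by less than 2-fold, Jun was at 0.07, and the intervals of Fosb (-0.08) and Atf3 (0.40) included 0. The median was 0.23, against -0.11 for all genes. The 3 comparisons share the control library, so their values are set side by side and not correlated. Genotype and cell makeup cannot be told apart in this library, since only 25 of its 4748 cells had fewer than 4 B-lineage genes. With dividing cells left out Jun turned to -0.10.

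B-lineage cells of the Mll3-labelled library (266 cells) were set beside the 4723 such cells of the Mll3/4-labelled library, chosen by the same call. That call asks only for a UMI of at least 4 genes, which deeper cells meet more readily. The 266 cells were 4.36% of their library's cells and held 6.17% of its UMIs, against 99.5% and 98.7% for the 4723. The cells were not matched by depth or by level of B-lineage genes, so the differences below cannot be assigned to the label. Fos was at 43.6 CPM in the former and 14.0 in the latter, Fosb at 73.7 and 32.0, Junb at 62.1 and 24.0, and Ier2 at 106 and 44.2. Jun was likewise lower in the latter (302 and 227). The opposite order was seen for Egr1 (28.4 and 50.6), Jund (332 and 409), Dusp1 (19.0 and 26.1) and Klf6 (30.3 and 42.2), so 5 genes were lower and 4 higher with intervals apart, and Atf3 had 3 UMIs in the Mll3-labelled cells. Within the Mll3-labelled library itself the B-lineage cells were below the other cells for Fos (43.6 against 105), Fosb (73.7 against 143) and Egr1 (28.4 against 93.4). The control had only 40 B-lineage cells. Ier2 was at 44.6 CPM in them (32.4 to 59.9), level with the Mll3/4-labelled B-lineage cells, and the Fos interval (21.3, 13.2 to 32.6) overlapped theirs (13.0 to 15.1) too. Fosb (55.8) and Junb (49.7) were higher in the control's B-lineage cells and Egr1 (7.10) lower, with intervals apart.

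**Figure D3:**
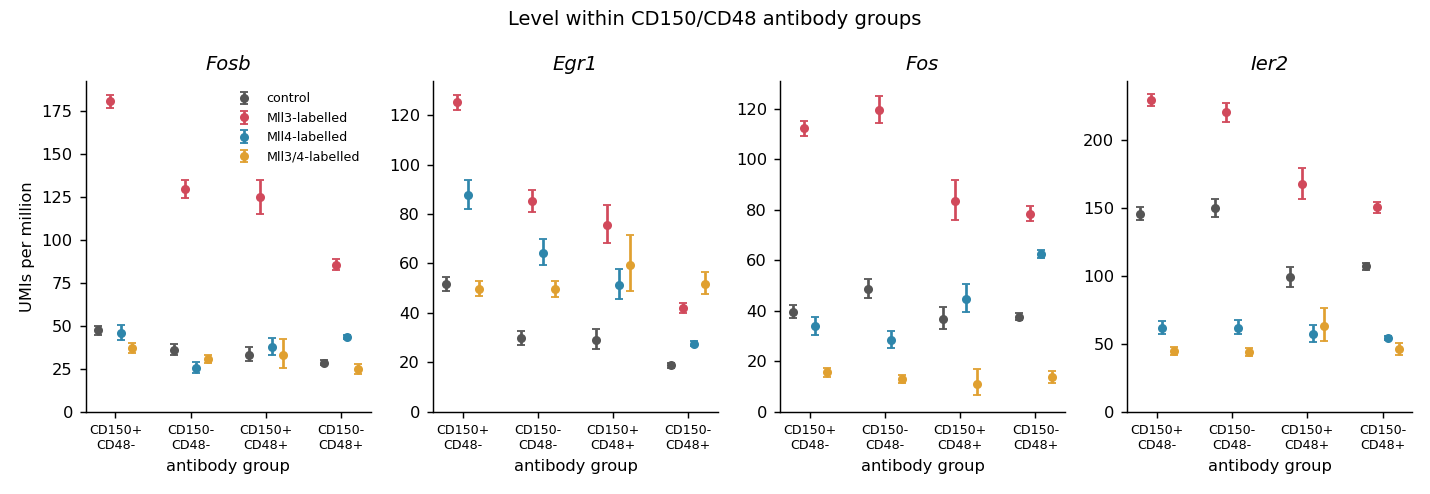
Level of Fosb, Egr1, Fos and Ier2 (CPM, from 0) in 4 groups of cells set by CD150 and CD48 antibody counts, 1 point per library with its 95% Poisson interval. Mll3-labelled points lie above the control in every group, and Egr1 falls from CD150+CD48- to CD150-CD48+ cells in all libraries but the Mll3/4-labelled one.

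Surface CD150 and CD48 divide the LSK gate. In normal marrow CD150+CD48- cells are enriched for stem cells, and cells that carry CD48 are multipotent progenitors. CD150+CD48- cells made up 25.4% of the control, 47.98% of the Mll3-labelled, 7.99% of the Mll4-labelled and 40.5% of the Mll3/4-labelled library. These shares depend on how the antibody counts are handled: without centring them per cell they were 18.6%, 41.4%, 6.24% and 4.42%, so the Mll3/4-labelled share passed from above the control's to below it. In the control, Egr1 was at 51.5 CPM in CD150+CD48- cells and 18.7 in CD150-CD48+ cells, a 2.75-fold range over the 4 groups and the widest of the 9 genes apart from Atf3. Dusp1 (28.2 and 15.0), Fosb (47.3 and 28.6) and Jund (330 and 213) were also higher in the CD150+CD48- cells, while Fos (39.6 and 37.7) and Junb (66.2 and 64.7) hardly differed.

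Within each antibody group all 10 genes lay above the control in the Mll3-labelled library, except that with other antibody thresholds Atf3, which rests on few UMIs, turned to -1.95 in CD150-CD48- cells and below 0 in CD150+CD48+ cells. Fosb was higher by 1.93 on the log2 scale in CD150+CD48-, 1.84 in CD150-CD48-, 1.91 in CD150+CD48+ and 1.58 in CD150-CD48+ cells. In CPM, Fosb was at 181, 130, 125 and 85.6 in these groups, against 47.3, 36.1, 33.2 and 28.6 in the control. The lowest Mll3-labelled group thus stood above the highest control group, as it did for 7 of the 9 genes apart from Atf3, all but Egr1 and Dusp1. The antibody groups split the same cells whose values chose the list, so they add no support. Fos (1.06 to 1.505) and Egr1 (1.16 to 1.52) were past 2-fold in all 4 groups, Junb (0.47 to 0.54) and Ier2 (0.49 to 0.76) in none. Dusp1, past 2-fold over the whole library, was at 0.81 to 0.88 within the groups.

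Jund and Ier2 were lower in all 4 groups of the Mll4-labelled library. In its 383 CD150+CD48- cells Jund was at -1.43, Dusp1 at -1.39 and Ier2 at -1.24, and in its 404 CD150-CD48- cells at -1.94, -1.35 and -1.27, where Jun was also lower, at -1.10. In its 3860 CD150-CD48+ cells, 80.5% of the library, 8 of the 10 genes lay above the control, with Klf6 at 1.69 and Fos at 0.73. The 2 below it were Jund (-0.78) and Ier2 (-0.98). Junb was the lowest of the 8, at 0.06, and without centring its interval included 0 (0.05, -0.0006 to 0.11). In the library's 146 CD150+CD48+ cells 5 genes lay above, with Jund at -0.91 and Ier2 at -0.79, and Junb and Dusp1 turned to 0.11 and 0.33 there without centring. The share of all genes above the control was not counted within antibody groups. Egr1 was above the control in all 4 groups, by 0.77, 1.11, 0.82 and 0.55. At 87.9 CPM in CD150+CD48- and 27.5 in CD150-CD48+ cells it was likewise highest in CD150+CD48- and lowest in CD150-CD48+ cells.

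Fos was lower in all 4 groups of the Mll3/4-labelled library (-1.35 to -1.91). Junb and Ier2 were past 2-fold lower in 3 groups each, and at -0.84 and -0.64 in the 175 CD150+CD48+ cells. Egr1 was level across the groups, at 49.8, 49.5, 59.4 and 51.8 CPM, so its ratio to control ran from -0.05 (0.02 with thresholds set per library, and -0.40, -0.72 to -0.11, without centring) in CD150+CD48- to 1.47 in CD150-CD48+ cells. Since 99.5% of that library's cells were of the B lineage by their transcripts, its groups do not hold the cell types that the antibodies mark in the control.

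Shares of cells showed whether levels came from few or many cells. After each cell was thinned to 3000 UMIs, Fosb had a UMI in 7.53% of control cells (6.94 to 8.17), 24.4% under the Mll3 label (23.3 to 25.5), 12.4% under the Mll4 label (11.5 to 13.4) and 7.89% under the Mll3/4 label (7.14 to 8.70). Unthinned shares were 22.7%, 49.5%, 36.2% and 16.3%. Fos was found in 10.3%, 19.9%, 14.9% and 4.22% of thinned cells, and Jund in 48.4%, 66.2%, 32.8% and 64.7%. Klf6 was found in 7.25%, 12.8%, 24.96% and 12.5%. Thinning left out 14, 17, 134 and 33 cells in the same order. No cell type of these libraries is known to lack these genes, so a background share from free RNA could not be set.

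The Egr1 UMIs of the Mll3/4-labelled library were concentrated in few cells. It had a UMI in 8.38% of its thinned cells (7.60 to 9.20), close to the 7.56% of the control (6.96 to 8.19), at a level of 50.4 against 27.5 CPM. The tenth of its cells richest in Egr1 held 85.8% of the Egr1 UMIs, against 67.9% in the control and 48.1% in the Mll3-labelled library. These shares are of unthinned cells, whose median depth was 8920, 14454 and 15381 UMIs in the same order. The highest Mll3/4-labelled cell had 24 Egr1 UMIs, and the highest control cell 16. In the Mll3-labelled library, in contrast, Egr1 was found in 20.6% of thinned cells.

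**Figure D4:**
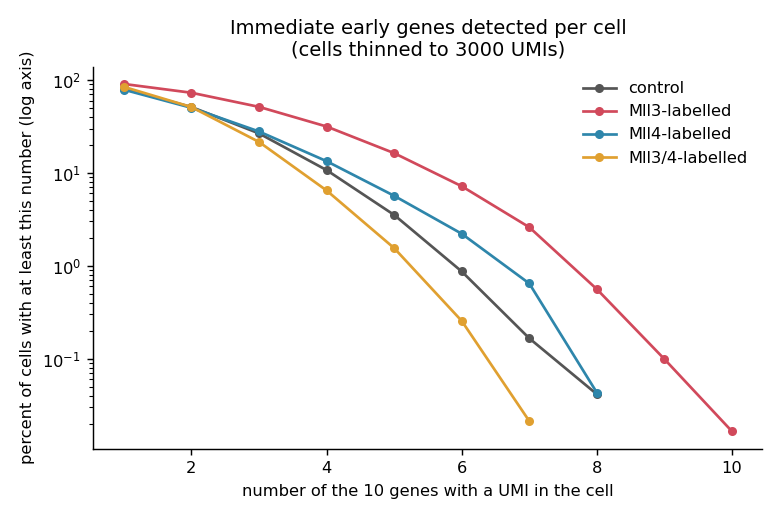
Percent of cells (log axis) in which at least a given number of the 10 genes had a UMI, after thinning to 3000 UMIs. At 5 genes the curves stand at 16.3% (Mll3-labelled), 5.67% (Mll4-labelled), 3.53% (control) and 1.55% (Mll3/4-labelled).

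The number of these genes seen in the same cell was highest in the Mll3-labelled library, as was their summed level, but the other libraries were not in the order of that level. The summed level was 799 CPM in the control, 1607 under the Mll3 label, 676 under the Mll4 label and 867 under the Mll3/4 label. A thinned cell had on average 1.74 of the 10 genes in the control, 2.73 under the Mll3 label, 1.79 under the Mll4 label and 1.65 under the Mll3/4 label. At least 5 were seen in 3.53%, 16.3%, 5.67% and 1.55% of cells. No gene of the list was seen in 19.6%, 9.30%, 21.3% and 15.5% of cells. At least 3 were seen in 51.4% of Mll3-labelled and 26.6% of control cells.

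Fosb was found more often in cells that also had Fos. In the control it was in 19.6% of 745 cells with Fos (16.8 to 22.6) and 6.16% of 6515 cells without. The shares were 42.3% and 19.9% under the Mll3 label, 26.3% and 9.98% under the Mll4 label, and 30.2% and 6.91% under the Mll3/4 label. Pairwise Pearson correlations over cells were weak at these counts, with a median over 36 pairs (Atf3 left out) of 0.08, 0.14, 0.10 and 0.03 in the same order, and Jun with Jund was the highest pair in each library. Cells of a library share its depth and handling, and these values are a description only.

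Levels differed by depth and division within the control and Mll3-labelled libraries. In the control, Fosb was at 52.3 CPM in the tertile of cells with the fewest UMIs and 25.2 in the tertile with the most, and in the Mll3-labelled library at 194 and 111. Jund was at 428 and 174 in the control and at 777 and 383 in the Mll3-labelled library. Dividing cells, 31.8% of the control and 34.6% of the Mll3-labelled library, had less Fosb than other cells (22.1 against 43.2, and 104 against 171 CPM). In the Mll3/4-labelled library the dividing cells had Fosb at 34.1 CPM and the others at 30.7. By mitochondrial share the change was smaller, with Fosb at 28.4 and 37.9 CPM in the lowest and highest tertile of control cells, and at 127 and 153 in those of the Mll3-labelled library. In each of these classes of cells the Mll3-labelled level of Fosb was above the control's. These classes split the same cells whose Fosb values chose the list, so this adds no support. The part of depth and division in the library values was not tested.

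Among heat shock genes, which cell handling is known to induce, Hspa1a and Hspa1b were above the control in every mutant library. They were highest in the Mll4-labelled library and not in the Mll3-labelled one. Hspa1a was at 1.65 CPM in the control, 21.6 under the Mll3 label, 41.5 under the Mll4 label and 7.66 under the Mll3/4 label, and Hspa1b at 1.68, 16.3, 52.4 and 5.79. Both encode the inducible HSP70 chaperone, are near copies that can share reads, and missed the mean of 20 CPM. Of 9 heat shock genes that passed it, 0 were past 2-fold in any mutant library. Dnajb1, an HSP70 cochaperone that heat shock also induces, was at 43.6, 54.3, 38.3 and 56.4 CPM. In the Mll3-labelled library 17.8% of cells had an Hspa1a or Hspa1b UMI, and Fosb was at 142 CPM in them and 138 in the others. Egr1 was at 70.6 and 94.7 CPM there, and Jun at 440 and 377. These cells were deeper than the others (median 19769.5 against 14501 UMIs), and the levels were not matched by depth. In the Mll4-labelled library Fos (65.4 and 48.7), Fosb (47.6 and 36.8) and Jun (245 and 183) were higher in such cells. Junb (53.2 and 72.9), Egr1 (28.5 and 43.7) and Klf6 (57.0 and 73.6) were lower in them. In the Mll3/4-labelled library Fos (22.7 and 13.4) was higher and Egr1 (37.2 and 51.3) lower. With such cells left out of every library, all 4 genes that were past 2-fold in the Mll3-labelled library stayed so. These are again values that chose the list, and the part of cell handling in any of these levels was not tested.

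Other genes of the immediate early response were taken from a list of 38, of which 19 passed the mean of 20 CPM. In the Mll3-labelled library 18 of the 19 lay above 0 and the median was 0.36. The median of all genes was 0.10, with quartiles of -0.05 and 0.22, so most genes lay above 0 there. The share of all genes above 0 was not counted. The list was also chosen with earlier results of these data known, so the 18 of 19 is not read as support. At least 2-fold higher were 2 of the 19 and lower 0, where 1.09% and 0.457% of all genes were past those lines. The 2 were Klf2, a Krüppel-like factor (5.89 CPM in the control and 20.9 in the Mll3-labelled library, log2 1.82), and Id3, an inhibitor of E proteins (1.45 and 9.49 CPM, log2 2.71), which B-lineage cells express and which passed the 20 CPM mean only through the Mll3/4-labelled library. With B-lineage cells left out of both libraries their log2 ratios were 1.81 (Klf2) and 1.52 (Id3). Zfp36, which marks AU-rich messages for decay, was at 34.6 and 68.1 CPM (log2 0.98), and Btg2, an antiproliferative gene, at 48.3 and 65.6. Ppp1r15a, which restores translation after stress, was at 36.0 and 53.8 CPM, and Ier3 at 45.7 and 47.9. Below the 20 CPM mean, Egr3 had 30 UMIs in the control and 111 in the Mll3-labelled library, Nr4a1 216 and 346, Klf4 180 and 322, Egr2 12 and 20, and Gadd45b 1529 and 1574.

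In the Mll4-labelled library 6 of the 19 were at least 2-fold higher and 2 lower, with a median of 0.05, where 4.98% and 3.28% of all genes were past those lines and the median was -0.13. The higher ones were Id2 (2.67), Klf2 (2.62), Rhob (1.70), Zfp36l1 (1.49), Sgk1 (1.43) and Cited2 (1.31), and the lower ones Ier3 (-1.76) and Dusp2 (-1.64). Id2 was under 20 CPM in every other library, so the filter itself fixed that it was higher here. Klf2 passed narrowly, at a mean of 21.9 CPM, and its highest level was in this library (36.4 CPM). Sgk1 was at 6.89 CPM here and passed only through the Mll3/4-labelled library (68.9 CPM). The count of higher genes is therefore not read against its background. Klf4, which macrophages and monocytes express, was at 15.7 CPM against 1.51, and Nr4a1 at 14.1 against 1.81. In the Mll3/4-labelled library 6 were higher and 2 lower, with a median of -0.07, where 6.07% and 10.5% of all genes were past those lines and the median was -0.11. Id3 (8.51), Sgk1 (4.75), Btg2 (2.50), Dusp6 (2.25), Klf2 (2.06) and Zfp36l1 (2.002) were the higher ones, and Ier3 (-6.07, 34 UMIs against 5448) and Zfp36l2 (-1.35) the lower. Id3 and Sgk1 were under 20 CPM in every other library, so their being higher was fixed by the filter, and these counts support nothing about the list. Dusp6, the phosphatase of ERK, was at 139 CPM against 29.3, while Gadd45b had 137 UMIs at 2.70 CPM against 12.8.

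The partners and inputs of the list were taken from fixed lists. Of 12 other AP-1 genes 4 passed the 20 CPM mean, and 0 were past 2-fold in the Mll3-labelled or Mll4-labelled library. Of all genes 1.09% were at least 2-fold higher and 0.457% lower in the former, and 4.98% and 3.28% in the latter. For so few genes 0 is near those shares and is not read as a result. Below the 20 CPM mean, Batf3 had 875 UMIs in the Mll4-labelled library and 159 in the control (log2 2.44). Batf (-2.18) and Mafg (-1.30) were lower in the Mll3/4-labelled library, where 6.07% of all genes were at least 2-fold higher and 10.5% lower. Of 16 upstream regulators 11 passed, again with 0 past 2-fold in the first 2 mutant libraries, near the shares of all genes there. In the Mll3/4-labelled library Elk4, an ETS partner of serum response factor, was higher (2.29), and the kinase genes Rps6ka1 (-2.10) and Rps6ka5 (-1.02) were lower. Srf itself was at 7.84, 9.14, 8.24 and 6.26 CPM in the 4 libraries.

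The 8 genes outside the list whose counts were most like the summed list, over 6084 thinned cells of the Mll3-labelled library and among 6176 genes, were Malat1, Zfp36, Neat1, H3f3b, Ifitm1, Txnip, Gm42418 and Ppp1r15a. Their Pearson correlations ran from 0.34 for Malat1 to 0.18 for Ppp1r15a. Malat1, a long RNA that stays in the nucleus, had 0.28 in the control, 0.44 under the Mll4 label and 0.28 under the Mll3/4 label. Its level was 8455 CPM in the control and 8817 in the Mll3-labelled library, a log2 ratio of 0.06. Zfp36 had 0.25 in the Mll3-labelled library and 0.17, 0.16 and 0.08 in the control, Mll4-labelled and Mll3/4-labelled libraries. Ifitm1, which had 0.21 in the Mll3-labelled library, was at -0.10 in the Mll4-labelled one.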

How the data were processed

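Per the labels' protocols, 10x Genomics Chromium 3-prime version 3.1 chemistry with feature barcodes was used. The deposited matrices hold raw UMI counts for 32285 genes and 6 antibodies, written by Cell Ranger 6.1.1 per the file headers, with mm10 named in the submitters' processing notes. The filter that chose the deposited barcodes is not given in the sources used here. Deposited barcodes numbered 5136 to 7702 and kept UMIs 50792614 to 120700343 per library.

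Counts were summed over kept cells, scaled to CPM, and compared as log2 ratios after 0.5 UMIs were added. Cells are not replicates, so no test was run. Intervals (95%) are exact Poisson for sums, Clopper-Pearson for shares and conditional binomial for ratios. They cover counting error only. Doublets were not removed, since the rule for the genes names no removal, and their removal was an alternative. Antibody groups came from centred log ratios over the 6 antibodies with 1 Gaussian mixture threshold per antibody, and ratios within a group needed at least 100 cells in both libraries. Mature cells had at least 3 markers of a list with a UMI and at least 0.1% of their UMIs in it, and dividing cells at least 0.1% in G2M genes. The ratio code was tested on simulated data. The genes named outside the list are those past 2-fold in each fixed list, up to 6 per list and library, 14 fixed genes, and the 8 most like the summed list. The members and lists were chosen with earlier results of these data known. Alternatives were other scalings (edgeR 4.0.16 TMM, DESeq2 1.42.0 size factors), cell weights, filters and cell classes. Of the gene identifiers 99.8% were found in GENCODE M21 (GRCm38). Tools were Python 3.11.15, scipy 1.17.1, scanpy 1.11.5 (Scrublet), scikit-learn 1.9.0 and R 4.3.3.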

Additional observations from a re-analysis of the deposited data

Results flagged for a closer look

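Fosb was also high in barcodes that the cell filter left out of the Mll3-labelled library, which no comparison above uses. In those 459 barcodes it was at 270.7 CPM (244 to 299), from 382 UMIs, against 98.0 CPM (80.3 to 118) in the 408 barcodes left out of the control. The left-out barcodes were shallow and rich in mitochondrial UMIs, with medians of 2377 UMIs and 23.7% in the Mll3-labelled library and 1958.5 UMIs and 22.0% in the control. Fosb was at 82.2 CPM in the 2909 barcodes left out of the Mll4-labelled and 102 CPM in the 388 left out of the Mll3/4-labelled library. In every library the left-out barcodes were above the kept cells, where Fosb was at 33.7 (control), 139 (Mll3-labelled), 41.9 (Mll4-labelled) and 31.8 CPM (Mll3/4-labelled).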

How the results depend on the processing

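Every value here compares single libraries, and the number of libraries limits what can be said. No paired analysis was possible because each genotype has 1 library and no result comes from a test. Of 13 alternatives, 3 were chosen after seeing the data: leaving out cells with an Hspa1a or Hspa1b UMI, dividing cells, or B-lineage cells (not run for the Mll3/4-labelled library, where 25 other cells remain). In the Mll3-labelled library all 13 kept Fosb, Fos and Egr1 at least 2-fold higher, with Fosb between 1.75 and 2.10. The median over the 10 genes there was 0.86 with TMM and with median-of-ratios size factors, 0.87 without mitochondrial and ribosomal protein genes in the total, 1.008 with equal weight per cell, 1.02 without mature-marker cells, 0.92 with thinned cells, 0.80 with antibody groups weighted to control and 1.02 without dividing cells. In the Mll4-labelled library it was 0.18 with TMM, 0.19 with median-of-ratios, 0.10 without mitochondrial and ribosomal genes, 0.50 with equal weight, 0.18 with the stricter filter, 0.40 with thinned cells and 0.10 with weighted antibody groups, and it turned to -0.063 without mature-marker cells. There the count of genes at least 2-fold lower was 0 with equal weight and with thinned cells, and 1 with the stricter filter and without cells with an Hspa1a or Hspa1b UMI, and the count higher was 1 without mature-marker cells. In the Mll3/4-labelled library 1 gene (Egr1, 1.07) was 2-fold higher with the stricter filter, and Jun turned to -0.10 without dividing cells. Scaling by TMM, by median-of-ratios and by the total without mitochondrial and ribosomal protein genes moved every log2 ratio by -0.10, -0.10 and -0.08 (Mll3-labelled), 0.04, 0.05 and -0.05 (Mll4-labelled), and 0.08, 0.11 and -0.06 (Mll3/4-labelled). With a minimum of 5 CPM, 1.85% of genes were at least 2-fold higher and 0.958% lower in the Mll3-labelled library. With 1 UMI in both libraries as the minimum, 7.63% and 5.04% were in the Mll3-labelled, 16.5% and 8.91% in the Mll4-labelled, and 17.4% and 17.9% in the Mll3/4-labelled library. The cause of these shifts was not tested. Other antibody thresholds kept the sign of 38 of 40 gene and group ratios in the Mll3-labelled library, both without centring and with thresholds per library.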
